A study of Mus musculus with 12 samples.

Results

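The brush border genes described here are 32 mouse genes in 2 sets, 19 enzymes of the intestinal brush border and 13 genes of microvillus structure. They were chosen by name, as enzymes of the apical membrane or as proteins of the microvillus, and each was read through the array probes annotated to it. Of the 32, 31 had a probe. Of those, 29 (16 enzymes and all 13 structural genes) passed the detection rule (a probe flagged well above background in every mouse of 1 or more groups) and entered the test, and those 29 were so flagged on all 12 arrays, among 26107 genes and unnamed transcripts in all. Enpp7, an intestinal phosphodiesterase that cleaves sphingomyelin, was not analysed here. Naaladl1, a peptidase related to the folate hydrolase, was well above background on 2, 2, 2 and 0 of 3 arrays in the wild-type vehicle, wild-type IIAEK, knockout vehicle and knockout IIAEK groups, and was left out of the test. Folh1, the folate hydrolase, was not well above background on any of the 12 arrays.

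RNA came from the duodenum of male mice, given as 7 weeks old. Wild-type mice and IAP knockout mice (Akp3-/-), which lack an intestinal alkaline phosphatase, were given 1 oral dose a day for 14 days. The dose was either the vehicle, a 5 g/L carboxymethylcellulose sodium salt solution, or that solution with IIAEK, a peptide of 5 amino acids that the labels describe as cholesterol-lowering, at 600 mg/kg of body weight, and all mice were fasted for 8 h before the tissue was taken. Each of the 4 groups held 3 samples with 1 array each, and a sample is called a mouse here, although the labels do not say whether mice were pooled. The labels of the IIAEK samples give the duration in weeks in one field, and 14 days is used here because the titles, the treatment protocol and the design text give it. Akp3-/- denotes loss of the gene in the whole animal, with no tissue-specific driver named. The strain and the construction of the knockout allele are not given in the sources used here.

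The brush border is the carpet of microvilli on the luminal face of the absorptive enterocyte. Each microvillus holds a core of bundled actin filaments, tied to the membrane by motor and linker proteins and to its neighbours by protocadherin links at the tips, and its membrane carries the enzymes that finish the digestion of sugars, peptides, lipids and nucleotides. Many of these enzymes are markers of the mature villus enterocyte and are under the control of transcription factors such as HNF1, CDX2 and GATA4.

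All 12 enterocyte villus markers and all 6 general epithelial markers were well above background on all 12 arrays, as the duodenum label implies, while Slc12a1 of the kidney and Fga of the liver were well above background on none. Akp3, the targeted gene, read 2.27, 2.04 and 1.70 in wild-type vehicle mice, 1.29, 1.05 and 2.72 in wild-type IIAEK mice, -4.01, -3.80 and -4.23 in knockout vehicle mice and -4.64, -4.42 and -4.90 in knockout IIAEK mice, as log2 level, the log2 of the processed intensity minus that of the array's 75th percentile. It fell in the knockout by 6.01 under vehicle and by 6.34 under IIAEK on the log2 scale (limma adjusted p = 4.82e-05 and 2.72e-05), and was well above background on 2 and 1 of the 3 knockout arrays of those groups. The arrays differed in 2 further ways that are set beside the brush border values below. They were hybridised on 2 slides, 7 arrays on slide 1 and 5 on slide 2, with every group on both. Separately, 9 tested genes of the gastric and Brunner's gland mucosa (Gkn1, Muc5ac, Tff2 and others) had a mean log2 level of -2.29 to -0.81 on 6 arrays and of 3.59 to 5.05 on the other 6. Of the single arrays, wild-type vehicle replicate 1 had a mean of 2.30 over 17 pancreatic genes (6.99 to 9.10 on the others), and wild-type vehicle replicate 3 a mean of 1.97 over Alb and Ttr of the liver (at most -0.23 on the others). Levels of different genes are not compared here, since each probe has its own efficiency, and in whole duodenum fewer enterocytes and less RNA per enterocyte cannot be told apart.

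The stretches upstream of these genes are the regulatory sequence the members could share. The RefSeq promoter table used here (GRCm38.p6) was matched for 27 of the 32 members, with 36 starts in all, and the 250 bases before each start were searched on both strands for 5 letter patterns: GTTAAT, contained in the HNF1 site, TTTATT for CDX, AGATAA for GATA, CAAAGTCCA for HNF4, and TATAAA. Among the 17 enzymes found, 6 (35.3%) held AGATAA and 7 (41.2%) held TATAAA in at least 1 window, against 11.4% and 14.3% of the 27025 genes of the table. None of the 10 structural genes found held either pattern. GTTAAT was present for 3 of 17 enzymes (17.6%) and 2 of 10 structural genes (20.0%), against 7.5% of all genes. TTTATT was present for 4 enzymes (23.5%) and 1 structural gene (10.0%), against 20.4%, and CAAAGTCCA for 1 enzyme (5.9%) against 0.5%. These are letter matches in short windows and not measured binding sites. The 4 windows shown are those of sucrase-isomaltase and lactase, the classic disaccharidases, of trehalase, whose level had the lowest p of any pairwise comparison of groups, and of Anks4b, a structural gene with GTTAAT on both strands. They are written 5′ to 3′ in the direction of the gene, with every match in capitals (the run of 10 capitals in Sis is TATAAA on both strands, overlapping).
Sis, chr3:72967864-72968113, minus strand: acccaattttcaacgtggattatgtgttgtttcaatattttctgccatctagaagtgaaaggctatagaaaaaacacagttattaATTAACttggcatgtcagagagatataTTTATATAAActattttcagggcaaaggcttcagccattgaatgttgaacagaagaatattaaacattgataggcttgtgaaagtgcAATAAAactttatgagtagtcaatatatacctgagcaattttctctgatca
Lct, chr1:128328319-128328568, minus strand: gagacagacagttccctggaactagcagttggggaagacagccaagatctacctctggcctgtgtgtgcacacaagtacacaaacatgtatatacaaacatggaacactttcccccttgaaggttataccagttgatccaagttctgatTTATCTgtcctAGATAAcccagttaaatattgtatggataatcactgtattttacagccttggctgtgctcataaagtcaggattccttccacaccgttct
Treh, chr9:44672983-44673232, plus strand: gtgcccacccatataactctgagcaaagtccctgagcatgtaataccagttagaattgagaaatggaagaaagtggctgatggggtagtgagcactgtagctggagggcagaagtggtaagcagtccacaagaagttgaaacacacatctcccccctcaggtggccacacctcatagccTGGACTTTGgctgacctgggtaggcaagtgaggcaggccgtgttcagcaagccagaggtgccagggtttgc
Anks4b, chr7:120173608-120173857, plus strand: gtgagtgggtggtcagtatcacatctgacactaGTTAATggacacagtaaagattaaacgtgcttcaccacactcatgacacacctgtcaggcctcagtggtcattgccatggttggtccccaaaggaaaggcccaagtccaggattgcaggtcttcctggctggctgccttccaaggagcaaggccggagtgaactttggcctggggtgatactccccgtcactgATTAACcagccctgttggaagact

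**Figure D1:**
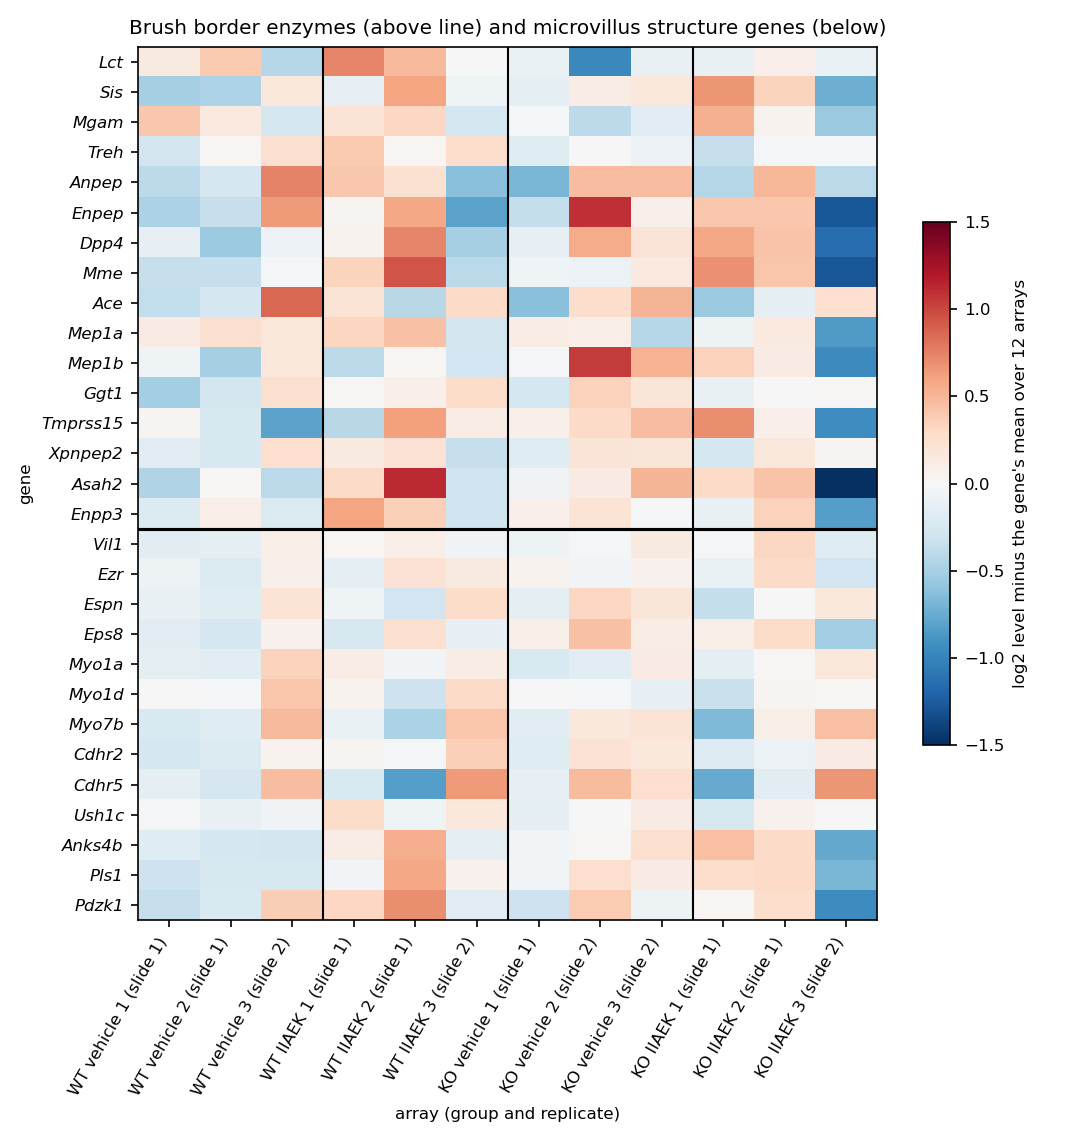
Log2 level of each of the 29 tested genes (rows, 16 enzymes above the line and 13 structural genes below it) on each of the 12 arrays (columns), minus that gene's mean over the 12 arrays; the colour scale stops at -1.5 and 1.5. The last column, replicate 3 of the knockout IIAEK group, holds the lowest value of 10 of the 16 enzymes and 6 of the 13 structural genes.

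The 4 sugar-splitting enzymes of the list were measured on all 12 arrays. Lactase (Lct), which splits milk sugar, read 6.44, 6.69 and 5.88 in wild-type vehicle mice, 7.03, 6.78 and 6.29 in wild-type IIAEK mice, 6.20, 5.34 and 6.19 in knockout vehicle mice and 6.19, 6.37 and 6.20 in knockout IIAEK mice. The group means stood highest in wild-type IIAEK mice and lowest in knockout vehicle mice, and the groups overlapped in each of the 4 comparisons made below. Sucrase-isomaltase (Sis), which splits sucrose and the branch points of starch, read 8.24, 8.28 and 8.89, then 8.62, 9.33 and 8.67, then 8.60, 8.85 and 8.90, and then 9.40, 9.07 and 8.00 in the same order of groups. The knockout IIAEK group thus held both the highest and the lowest Sis value of the study. Trehalase (Treh) read 4.81, 5.09 and 5.32, then 5.47, 5.10 and 5.34, then 4.90, 5.08 and 4.99, and then 4.73, 5.06 and 5.05. All 3 knockout IIAEK values of Treh lay below all 3 wild-type IIAEK values. Maltase-glucoamylase (Mgam), which releases glucose from starch fragments, ranged from 0.88 to 1.98 over the 12 arrays with group means of 1.54, 1.53, 1.25 and 1.45.

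Peptidases of the brush border trim peptides from either end or cut within them. Aminopeptidase N (Anpep) read 5.63, 5.77 and 6.77 in wild-type vehicle mice, 6.42, 6.25 and 5.39 in wild-type IIAEK mice, 5.33, 6.49 and 6.48 in knockout vehicle mice and 5.59, 6.52 and 5.62 in knockout IIAEK mice. Each group spanned about the same range, and the group means (6.06, 6.02, 6.10 and 5.91) differed by less than any of the groups' SDs (0.52 to 0.67, n = 3). Dipeptidyl peptidase 4 (Dpp4), which removes dipeptides from the amino end, read 2.73, 2.30 and 2.77, then 2.91, 3.59 and 2.36, then 2.73, 3.41 and 3.05, and then 3.44, 3.28 and 1.71. Its highest value was in wild-type IIAEK replicate 2 and its lowest in knockout IIAEK replicate 3. Meprin alpha (Mep1a), a subunit of a metalloprotease, read 2.07, 2.20 and 2.12, then 2.28, 2.39 and 1.67, then 2.06, 2.05 and 1.53, and then 1.87, 2.10 and 1.10. All 3 knockout vehicle values of Mep1a lay below all 3 wild-type vehicle values, the nearest being 2.059 and 2.071. Meprin beta (Mep1b), the other subunit, read 3.87, 3.42 and 4.09, then 3.52, 3.95 and 3.64, then 3.91, 4.97 and 4.45, and then 4.28, 4.05 and 2.97. Its knockout vehicle mean of 4.44 ± 0.53 (SD, n = 3) was the highest of the 4 groups, the others being 3.70 to 3.79, and all groups overlapped.

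**Figure D2:**
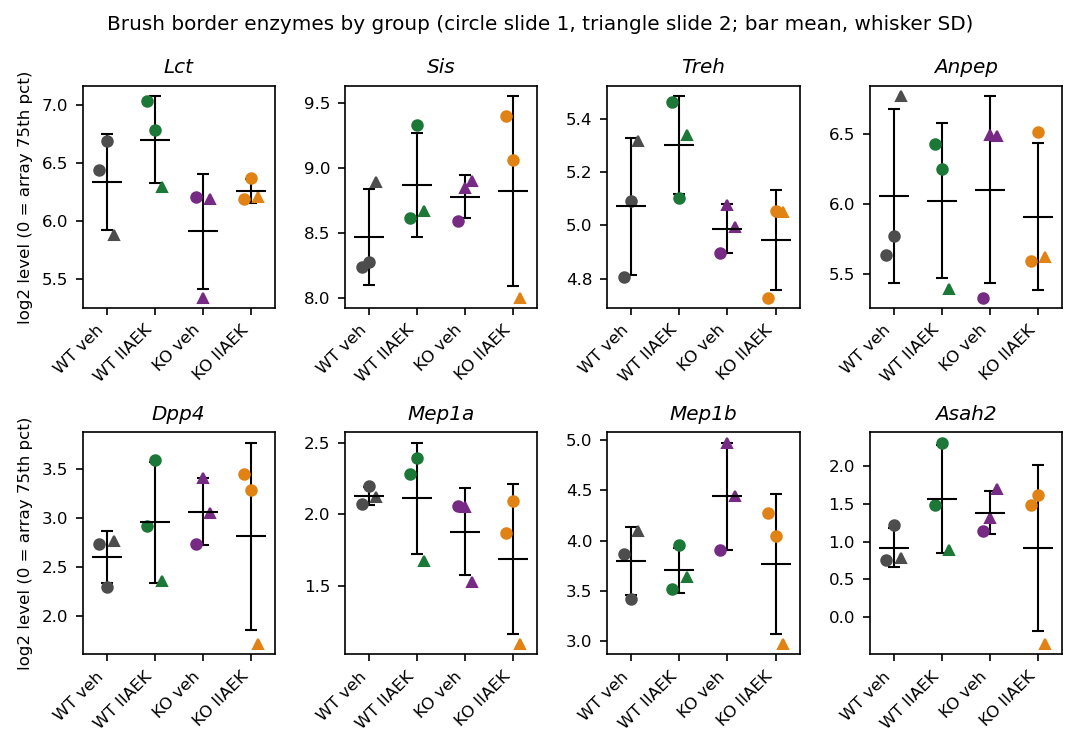
Log2 level (0 is the array's 75th percentile) of 8 enzymes in each mouse of the 4 groups, circles for slide 1 and triangles for slide 2, with the group mean as a bar and the SD (n = 3) as whiskers. Knockout IIAEK replicate 3, the triangle of the last group, is the lowest point in the panels of Sis, Dpp4, Mep1a, Mep1b and Asah2.

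The other peptidases and the lipid and nucleotide enzymes are given by their range over the 12 arrays. Glutamyl aminopeptidase (Enpep) ranged from 0.73 to 3.09, neprilysin (Mme), an endopeptidase, from 2.0 to 4.22, and the dipeptidyl carboxypeptidase Ace from 0.91 to 2.40. Gamma-glutamyltransferase (Ggt1), which acts on glutathione, ranged from 2.95 to 3.82, and the aminopeptidase P Xpnpep2 from 0.45 to 1.06. Enteropeptidase (Tmprss15), the protease that activates trypsinogen, ranged from 3.36 to 4.99. The neutral ceramidase Asah2 ranged from -0.36 to 2.32, the widest span of the 16 enzymes tested, and the ectonucleotidase Enpp3 from 3.82 to 5.24. The SD within groups had a median of 0.47 over the 16 enzymes, with a range of 0.19 (Treh) to 0.77 (Enpep), against a median of 0.30 over all 26107 features.

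Structural genes varied less between mice, with a median SD within groups of 0.25 and a range of 0.14 (Ush1c) to 0.57 (Cdhr5). Villin (Vil1), which bundles and severs actin, read 6.81, 6.82 and 7.05 in wild-type vehicle mice, 6.99, 7.06 and 6.91 in wild-type IIAEK mice, 6.89, 6.94 and 7.10 in knockout vehicle mice and 6.94, 7.28 and 6.78 in knockout IIAEK mice. Its 12 values lay between 6.78 and 7.28, and all groups overlapped. Plastin 1 (Pls1, fimbrin), another bundler of the core, read 5.92, 6.0 and 5.99, then 6.19, 6.82 and 6.30, then 6.19, 6.49 and 6.37, and then 6.50, 6.52 and 5.55. The 3 wild-type vehicle values of Pls1 were close together and lay below every value of the wild-type IIAEK and knockout vehicle groups. Eps8, which caps and bundles actin at the tip, read 3.38, 3.29 and 3.60, then 3.30, 3.78 and 3.42, then 3.62, 3.98 and 3.65, and then 3.62, 3.81 and 3.02. Espin (Espn), a small bundler, ranged from 1.70 to 2.36, and ezrin (Ezr), which links the core to the membrane, from 4.90 to 5.48.

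Among the motors and membrane links, myosin 1a (Myo1a), which ties the core to the membrane along its length, read 6.65, 6.62 and 7.14, then 6.91, 6.76 and 6.90, then 6.57, 6.63 and 6.92, and then 6.65, 6.81 and 6.96. All groups overlapped. Myo1d, a related motor, ranged from 4.63 to 5.38. The tip links are built by the protocadherins Cdhr2 and Cdhr5 and anchored by Ush1c (harmonin), Anks4b and the motor Myo7b. Cdhr2 read 6.93, 6.99 and 7.25, then 7.24, 7.18 and 7.56, then 7.02, 7.42 and 7.36, and then 7.0, 7.10 and 7.32. Cdhr5 read 4.04, 3.94 and 4.65, then 3.96, 3.37 and 4.83, then 4.07, 4.66 and 4.44, and then 3.43, 4.04 and 4.86. In both protocadherins the higher values came from the arrays of slide 2, as set out below. Ush1c ranged from 4.24 to 4.76, Anks4b from 1.75 to 3.07 and Myo7b from 2.75 to 3.90. Pdzk1, an apical scaffold for transporters, read 4.47, 4.59 and 5.18, then 5.13, 5.51 and 4.66, then 4.51, 5.20 and 4.74, and then 4.85, 5.07 and 3.87, with the lowest value again in knockout IIAEK replicate 3.

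**Figure D3:**
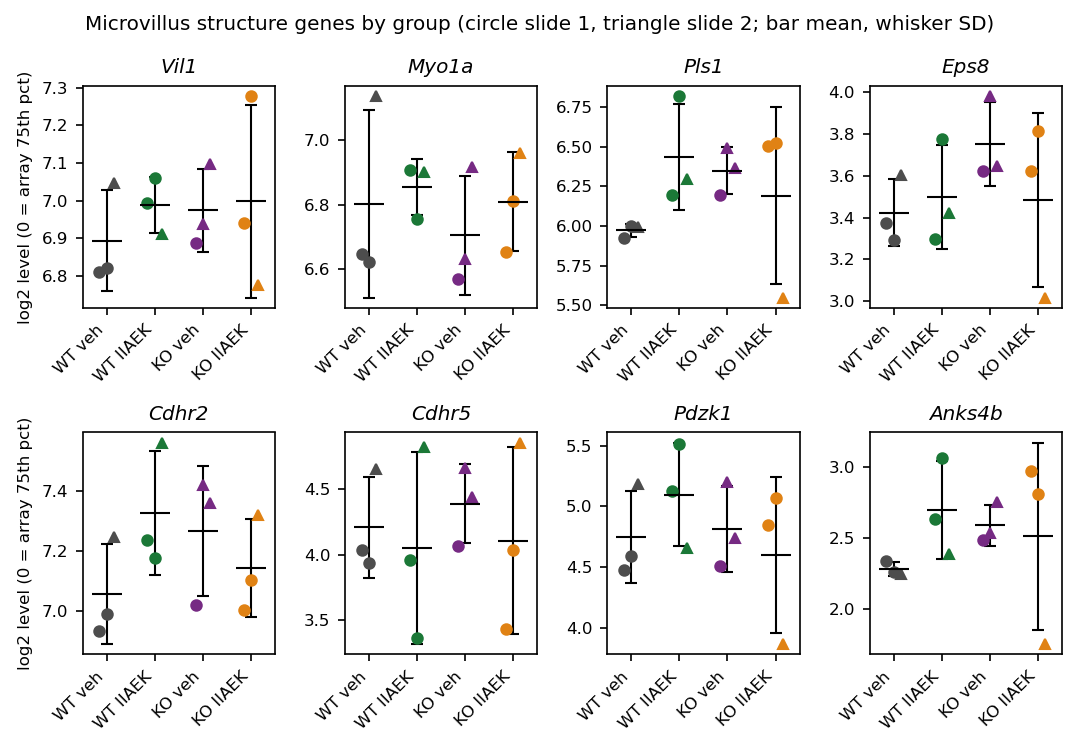
Log2 level (0 is the array's 75th percentile) of 8 microvillus structure genes in each mouse of the 4 groups, circles for slide 1 and triangles for slide 2, with the group mean as a bar and the SD (n = 3) as whiskers. The wild-type vehicle points of Pls1 and Anks4b lie close together, and in Cdhr5 and Cdhr2 the triangles lie above all circles.

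The first comparison asked whether IIAEK altered these genes in wild-type mice. None of the 29 members passed the test: limma called 0 at an adjusted p under 0.05, against 0% of all features, and 0 reached an unadjusted p under 0.05, against 3.14% of all features. By direction only, 11 of 16 enzymes and 10 of 13 structural genes had a higher mean with IIAEK, with median log2 differences of 0.27 and 0.09 against 0.03 over all features. Leaving out single arrays moved the enzyme median between 0.14 (without wild-type vehicle replicate 1) and 0.34 (without wild-type vehicle replicate 3), and the structural median between 0.05 and 0.20 without the same arrays. Under quantile normalization the structural median was -0.03 with 6 of 13 above 0. Second probes gave the opposite sign for Enpep (-0.47 against 0.006), Eps8 (-0.125 against 0.075) and Ush1c (-0.12 against 0.19). With the mean of each gene's probes, 10 of 16 enzymes and 9 of 13 structural genes were above 0. The largest enzyme difference was that of Asah2 (0.65, SE 0.49, n = 3 per group). The smallest p was that of Pls1, whose mean was 0.46 higher (SE 0.25, 95% interval -0.09 to 1.02, limma unadjusted p = 0.0937, adjusted p = 0.999). Pls1 and Anks4b, at 0.46 and 0.42, were the 2 members whose IIAEK values all exceeded the vehicle values, which held for 5.58% of all features (none was lower throughout, against 3.69%). Lct differed by 0.37 (95% interval -0.25 to 0.99), Sis by 0.40 (-0.34 to 1.15) and Vil1 by 0.09 (-0.24 to 0.43), which gives the range of differences compatible with 3 mice per group. Within slide 1 the enzyme median was 0.41 with 15 of 16 above 0, and within slide 2, with 1 array per group, it was -0.31 with 5 of 16 above 0. With the gastric and pancreatic gene means as covariates it was -0.05.

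IIAEK in the knockout gave the second comparison, again with 0 members called, against 0% of all features, and 0 at an unadjusted p under 0.05, against 1.91%. Here 13 of 16 enzymes and 11 of 13 structural genes had a lower mean with IIAEK, with medians of -0.19 and -0.11 against -0.003 over all features. No member was separated between the groups throughout, against 1.98% of all features higher and 2.7% lower. Meprin beta had the largest difference and the smallest p (-0.68, SE 0.35, 95% interval -1.44 to 0.09, limma unadjusted p = 0.0774, adjusted p = 1). Leaving out single arrays moved the enzyme median between -0.34 (without knockout IIAEK replicate 2) and 0.11 (without knockout IIAEK replicate 3), and the structural median between -0.22 (without knockout vehicle replicate 1) and -0.03 (without knockout IIAEK replicate 1). Second probes gave the opposite sign for Myo1d (0.017 against -0.045) and Pdzk1 (0.012 against -0.219). The Mep1b difference was -0.28 without knockout IIAEK replicate 3. Within slide 1, where that array is absent and 1 vehicle array stands against 2, the enzyme median was 0.29 with 14 of 16 above 0, and within slide 2, where that array stands alone against 2 vehicle arrays, it was -0.87 with 2 of 16 above 0. By size, the largest enzyme differences in that last fit were -1.87 for Asah2, -1.86 for Enpep and -1.74 for Mep1b. Dpp4 (-1.51), Mme (-1.31) and Tmprss15 (-1.30) came next. Every group but knockout vehicle held 1 array on slide 2. The spread in that fit thus came only from the difference between the 2 knockout vehicle arrays, pooled over features, and its calls are not given.

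The direct test of whether IIAEK acted differently in the 2 genotypes called 0 members, against 0% of all features, with 0 at an unadjusted p under 0.05, against 1.52%. The difference was below 0 for 15 of 16 enzymes and 11 of 13 structural genes, with medians of -0.39 and -0.19 against -0.04 over all features. Asah2 had the largest estimate (-1.12, SE 0.69, limma unadjusted p = 0.131), and Pls1 the smallest p (-0.62, SE 0.36, limma unadjusted p = 0.111). The 4 pairwise comparisons share their groups, so these directions are not independent of those above. For Enpep the second probe gave the opposite sign, 0.40 against -0.43. Leaving out single arrays moved the enzyme median between -0.57 (without knockout vehicle replicate 1) and -0.11 (without knockout IIAEK replicate 3), and the structural median between -0.31 (without knockout vehicle replicate 1) and -0.12 (without wild-type vehicle replicate 2). For the enzymes, with the gastric and pancreatic gene means as covariates the median was -0.07.

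**Figure D4:**
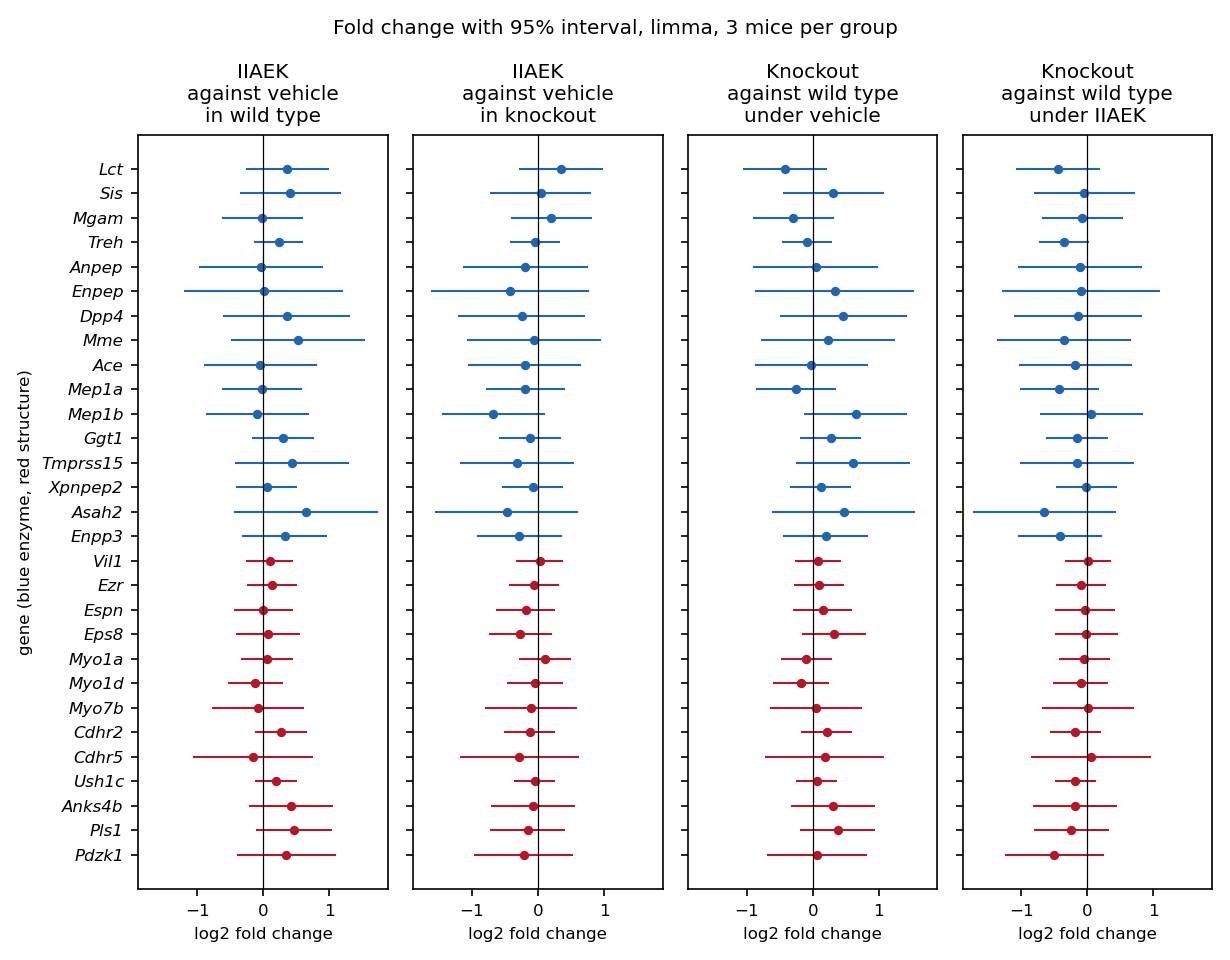
Log2 fold change of each tested member with its 95% interval (limma, 3 mice per group) in the 4 pairwise comparisons, enzymes in blue and structural genes in red. Every interval crosses 0, though that of Treh under IIAEK only to 0.003, and the enzymes' intervals run wider than most of the structural genes'.

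Loss of Akp3 under vehicle was the next question. No member passed the test (limma, 0 called, against 0.00766% of all features, and 0 at an unadjusted p under 0.05, against 3.85%). Means were higher in the knockout for 11 of 16 enzymes and 11 of 13 structural genes, with medians of 0.21 and 0.09 against 0.03 over all features. Mep1b had the smallest p (0.65, SE 0.35, limma unadjusted p = 0.0892, adjusted p = 0.993), and Tmprss15 followed in size at 0.61 (SE 0.39). Tmprss15, Eps8, Anks4b and Pls1 (0.61, 0.33, 0.31 and 0.38) lay above the wild-type range in all 3 knockout mice, which held for 8.5% of all features. Mep1a (-0.25) lay below it, which held for 5.87%. Mep1a also differed by -0.46 on slide 2 against slide 1. Slide 2 held 2 of the 3 knockout vehicle arrays and 1 of the 3 wild-type vehicle arrays. Lct was lower by 0.42 (95% interval -1.04 to 0.20). The second probes of Dpp4, Enpep, Eps8 and Pdzk1 gave the opposite sign in this comparison: -0.02 against 0.46 for Dpp4, -0.56 against 0.33 for Enpep, -0.05 against 0.33 for Eps8 and -0.34 against 0.07 for Pdzk1. Leaving out single arrays moved the enzyme median between 0.10 (without knockout vehicle replicate 2) and 0.37 (without wild-type vehicle replicate 3), and the structural median between 0.04 (without wild-type vehicle replicate 2) and 0.28 (without wild-type vehicle replicate 3). The enzyme median was 0.09 within slide 1, -0.02 within slide 2 and -0.19 with the gastric and pancreatic means as covariates.

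Under IIAEK the knockout also gave 0 called members, against 0.00766% of all features, and 0 at an unadjusted p under 0.05, against 1.31%. Means were lower in the knockout for 15 of 16 enzymes and 10 of 13 structural genes, with medians of -0.15 and -0.10 against -0.01 over all features. Treh came closest to the unadjusted threshold (-0.36, SE 0.16, 95% interval -0.72 to 0.003, limma unadjusted p = 0.0518, adjusted p = 1). Treh and Ggt1 (-0.16) were the members whose knockout values all lay below the wild-type values, which held for 2.19% of all features (none was higher throughout, against 1.65%). For Ggt1 the groups all but touched, with the highest knockout value at 3.4879 and the lowest wild-type value at 3.4883. Leaving out single arrays moved the enzyme median between -0.38 (without wild-type IIAEK replicate 3) and 0.01 (without knockout IIAEK replicate 3), and the structural median between -0.17 (without wild-type IIAEK replicate 2) and -0.05 (without wild-type IIAEK replicate 3). With either wild-type IIAEK replicate 2 or knockout IIAEK replicate 3 left out, 8 of 16 enzymes were above 0. Treh stood at -0.41 without knockout IIAEK replicate 3. For Myo1d the second probe gave the opposite sign, 0.10 against -0.10.

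Averaged over treatment, the knockout effect called 0 members, against 0.0192% of all features, with 0 at an unadjusted p under 0.05, against 3.03%. Lactase had the smallest p of any member in any of the 7 comparisons (-0.44, SE 0.20, limma unadjusted p = 0.0514, adjusted p = 0.999). The Lct difference was -0.42 under vehicle and -0.45 under IIAEK, and it was below 0 in each comparison of the genotypes under every alternative that was run. On slide 2 alone it was -0.10 on average, and on slide 1 alone -0.49. Lct was also lower on slide 2 by 0.46 (SE 0.16, adjusted p = 0.0612), and 2 of its 3 knockout vehicle arrays against 1 of its 3 wild-type vehicle arrays were on that slide. With slide as a block the average was -0.36. Averaged over genotype, the IIAEK effect called 0 members, against 0% of all features, with 0 at an unadjusted p under 0.05, against 2.94%, and had medians of 0.05 for enzymes and 0.06 for structural genes, the latter -0.04 under quantile normalization. For both averages, leaving out single arrays moved the enzyme median to either side of 0, between -0.06 and 0.13 for IIAEK and between -0.14 and 0.10 for the knockout.

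Several members differed between the slides, at a share near that of all features. In a model of the 4 groups and the slide, a term added after the values were seen, limma called 4 structural genes higher on slide 2: Cdhr5 by 0.86 (SE 0.16, adjusted p = 0.0061), Myo7b by 0.62 (adjusted p = 0.0118), Espn by 0.38 (adjusted p = 0.0128) and Cdhr2 by 0.32 (adjusted p = 0.0164). Each of the 4 had all 5 values of slide 2 above all 7 of slide 1, which held for 7.17% of all features (5.67% lay below). Among the enzymes, Ace (0.80) and Ggt1 (0.37) were called higher on slide 2 and Mgam (-0.54) and Mep1a (-0.46) lower. Together 8 of 29 members were called, 6 higher and 2 lower, against 12.7% of all features called higher and 13.6% called lower. Each slide held every group, and with slide as a block 0 members were called in any of the 7 comparisons.

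Enzyme levels also moved with the gastric and Brunner's gland genes. On the 6 arrays with a mean of those genes below 0, which were wild-type IIAEK replicates 1 and 2, knockout vehicle replicates 2 and 3 and knockout IIAEK replicates 1 and 2, the mean log2 level of the 16 enzymes was 3.73 to 3.99. On the other 6 arrays it was 2.95 to 3.68. These ranges did not overlap, and without knockout IIAEK replicate 3 (2.95) the other 5 arrays stood at 3.39 to 3.68. The structural mean ran from 4.65 to 4.95 and from 4.61 to 4.95 on the same arrays, overlapping almost wholly. Per gene, 14 of 16 enzymes had a higher mean on the 6 arrays with low gastric genes, with a median difference of 0.50 against 0.03 over all features, and 8 of 13 structural genes, with a median of 0.05. Of the further genes of the same surface described below, 5 of 9 enzymes (median 0.008) and 10 of 23 microvillus and terminal web genes (-0.021) had higher means there. Other tissue genes moved with the same arrays: all 12 villus markers (median 0.27) and all 17 pancreatic genes (1.43) had higher means on those 6 arrays. All 9 smooth muscle genes (-0.49) and all 7 enteric neuron and glia genes (-0.15) had lower ones. The pancreatic mean was 7.77 to 9.10 on those 6 arrays and 2.30 to 8.85 on the others, lowest in wild-type vehicle replicate 1. The part of these tissues in the enzyme values was not tested. The values of Dpp4 (0.85), Asah2 (0.92) and Anks4b (0.55) did not overlap between the sets of arrays, which held for 1.02% of all features in that direction (1.6% in the other). Lct (0.03) and Treh (-0.01) hardly differed. The arrays were sorted here by gene levels and not by the design, so no test was made. All 4 IIAEK arrays of slide 1 were low in gastric genes and all 3 vehicle arrays of slide 1 were high, whereas both IIAEK arrays of slide 2 were high, so within slide 1, and within the knockout on slide 2, the IIAEK effect and the gastric level cannot be told apart. In the wild type on slide 2 both arrays were high in gastric genes. Under vehicle, all 3 wild-type arrays and knockout replicate 1 were high, and knockout replicates 2 and 3, both on slide 2, were low. Within slide 2 under vehicle, the genotype and the gastric level thus cannot be told apart either.

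**Figure D5:**
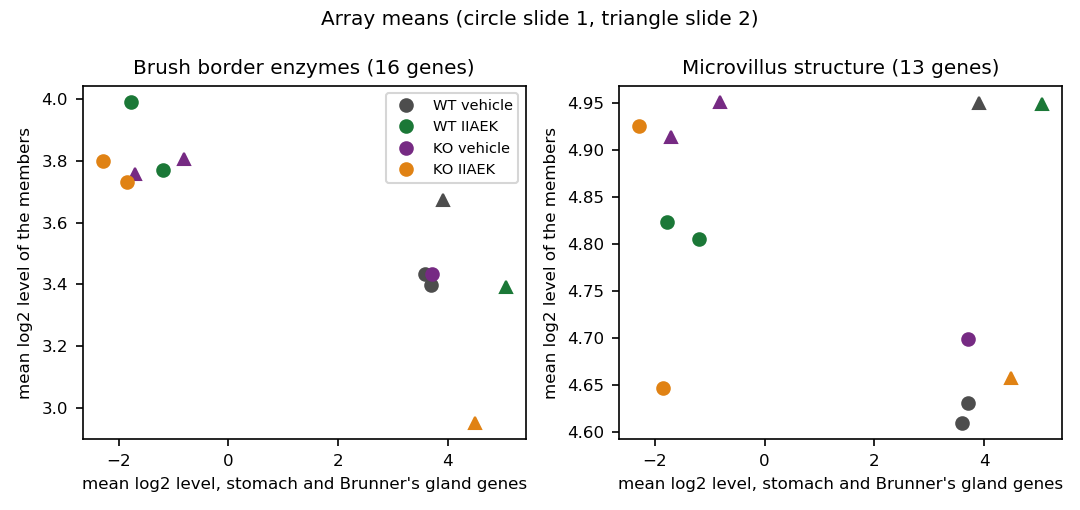
Mean log2 level of the 16 tested enzymes (left) and the 13 structural genes (right) on each of the 12 arrays against the mean log2 level of 9 gastric and Brunner's gland genes on the same array, coloured by group, circles for slide 1 and triangles for slide 2. Enzyme means are 3.73 to 3.99 on the 6 arrays at the left and 2.95 to 3.68 on the 6 at the right, while the structural means overlap.

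Knockout IIAEK replicate 3 stood apart in more than the enzymes. It had the lowest mean of the 12 enterocyte villus markers (5.49, the next array 5.75) and the highest means of the 9 smooth muscle genes (4.20, the next 3.51), 7 matrix and fibroblast genes (3.09, the next 2.67), 6 endothelial genes (-0.16, the next -0.37), 7 enteric neuron and glia genes (-1.03, the next -1.31) and 8 crypt and cell cycle genes (2.19, the next 1.96). Its mean of the 6 general epithelial genes, 5.39, lay inside the range of the other arrays (5.14 to 5.58). Among the arrays of slide 2 alone that mean was the lowest, the others standing at 5.43 to 5.58. The part of these tissue differences in the enzyme values was not tested. Not every brush border gene was low on this array: Cdhr5 had its highest value of the study there (4.86), and Myo7b was at 3.87. Both genes were higher on slide 2, which held this array. Over the arrays of slide 2, Cdhr5 read 4.44 to 4.86 and Myo7b 3.58 to 3.90.

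Other genes of the same surface were read from lists of related genes. Of 10 further brush border enzymes, 9 were tested, and of those Akp3 alone was called, in both genotype comparisons. Alpi, the other intestinal alkaline phosphatase, differed by -0.26 (SE 0.26) under vehicle and by -0.45 (SE 0.26) under IIAEK and was not called. Its sequence is close to that of Akp3, and cross-hybridisation of the probes was not tested. Alpi was also called higher on slide 2, by 0.49 (limma adjusted p = 0.0227). That slide held 2 of the 3 knockout vehicle arrays and 1 of the 3 wild-type vehicle arrays. Plb1, a phospholipase, was well above background on 2 of 3 wild-type and 1 of 3 knockout arrays under vehicle, so its difference there is not given. The carboxypeptidase Cpm differed by 0.40 with IIAEK in the knockout (SE 0.21). Of 23 further microvillus and terminal web genes, all tested, 0 were called in any comparison. Baiap2l1, which shapes the membrane around actin, differed by 0.44 in the knockout under vehicle (SE 0.15, limma unadjusted p = 0.0147), and by -0.42 with IIAEK in the knockout (SE 0.15). Pdzd3, an apical scaffold, differed by 0.38 in the knockout under vehicle (SE 0.15), and Cobl, an actin nucleator, by 0.40 with IIAEK in the wild type (SE 0.18). Of 14 transcription factors of the enterocyte, all tested, 0 were called. Gata6 differed by 0.33 with IIAEK in the wild type (SE 0.13) and by 0.26 in the knockout (SE 0.13), Cdx2 by 0.31 in the wild type (SE 0.18), and Klf4 by -0.30 in the knockout (SE 0.18). Of the 12 enterocyte villus markers, 0 were called, with medians of 0.15 for IIAEK in the wild type, -0.06 for IIAEK in the knockout, 0.10 for the knockout under vehicle and -0.06 for the knockout under IIAEK. Among them Mttp, which loads lipid onto chylomicrons, differed by -0.36 in the knockout under IIAEK (SE 0.21), Apoa4 by 0.29 with IIAEK in the wild type (SE 0.19), and the peptide transporter Slc15a1 by 0.83 with IIAEK in the knockout (SE 0.59). Slc15a1 differed by -1.31 on slide 2 against slide 1 (limma adjusted p = 0.00341, no overlap between slides), which held 2 of the 3 knockout vehicle arrays and 1 of the 3 knockout IIAEK arrays.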

How the data were processed

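Total RNA was labelled with Cy3 and hybridised to Agilent one-colour arrays, 1 per sample, and scanned intensities were extracted with Feature Extraction 10.7.3.1, per the file headers. The deposited intensity per spot is the scanner software's processed signal. The authors' deposited value table is on the log2 scale, centred on each probe's median, with column medians of -0.09 to 0.12, and each of its columns correlated with that array's scanner values at 0.999996 or more; it was used as an alternative. Control spots (3671 of 62976) and outlier spots were left out, spots of a probe were averaged, and each array was set to 0 at its 75th percentile (intensity 195 to 465). On each array 55.9% to 64.0% of probes carried the scanner flag for signal well above background and 0 spots were saturated. The number of arrays limits the precision. Replicates correlated at 0.973 to 0.991.

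A probe passed when flagged well above background in every mouse of 1 or more groups, the brightest probe stood for a gene, and 10 members had several probes. Symbols were taken from the files and from RefSeq tables. The 26107 features (15583 named) were fitted with limma 3.58.1 in R 4.3.3, 1 mean per group, intensity trend, 7 contrasts and Benjamini-Hochberg adjustment over all features, with calls at an adjusted p under 0.05. Members named with every array's value were Lct, Sis, Treh, Anpep, Dpp4, Vil1, Myo1a, Cdhr5 and the 4 enzymes and 4 structural genes with the smallest p over the 4 pairwise contrasts. Of each related list, up to 3 genes with the smallest p were named, with Akp3 as the targeted gene. Asah2, Mme, Enpep, Tmprss15, Anks4b, Ggt1, Mgam, Ace, Espn, Myo7b and Alpi are given single values because they were singled out after their values were seen. The members and all lists were chosen with earlier results of these data known. The labels do not say whether a sample is 1 mouse, so p-values measure only the spread between these samples, which may in part be technical. Alternatives were another background correction (normexp on the median signals, where the plan had named mean signals, which were not used here), quantile normalization, no filter, the mean of a gene's probes, the slide, the replicate number, tissue gene means as covariates, no trend, fits of 2 groups, the authors' table and leaving out arrays.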

Additional observations from a re-analysis of the deposited data

How the results depend on the processing

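No member was called in any of the 7 comparisons under any alternative outside the slide 2 fit. There every group but knockout vehicle held 1 array, so its calls are not given. Within slide 1 the knockout vehicle group held 1 array. Such an array is assumed to vary like the groups with 2, and counts from such fits are no evidence of stability. Within slide 1 the medians of IIAEK in the knockout were 0.289 for enzymes and 0.0547 for structural genes. Within slide 2 the enzyme medians were -0.308 for IIAEK in the wild type, -0.869 for IIAEK in the knockout, -0.501 for the knockout under IIAEK and -0.523 for IIAEK on average, and the structural median for the knockout on average was -0.118. With the gastric and pancreatic means as covariates the enzyme medians were -0.0533 for IIAEK in the wild type, -0.0712 for the difference between genotypes and -0.189 for the knockout under vehicle. For the knockout under vehicle, leaving out each array in turn gave structural medians of 0.0434 to 0.278 (the latter without wild-type vehicle replicate 3), and leaving out wild-type vehicle replicates 1 and 3 and knockout IIAEK replicate 3 together, a choice made after seeing the data, gave 0.257. The cause was not tested. Of the 29 members, 10 kept their sign under all alternatives for IIAEK in the wild type, 3 for IIAEK in the knockout, 13 for the difference, 10 for the knockout under vehicle and 9 for the knockout under IIAEK.

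The labels do not say that the replicate numbers pair the mice. Deviations of same-numbered arrays correlated at -0.252 to 0.699 (median 0.143, over 0.1 in 11 of 18 pairs) and those of other pairs at -0.715 to 0.649 (median -0.128, over 0.1 in 12 of 36), with slides shared by some of both, so not every same-numbered pair was over 0.1 and the numbers were not taken as pairs. With the replicate number as a block 0 members were called. Each group holds each number once, so the block cannot move a difference of group means (enzyme medians 0.267 and -0.191 for IIAEK in the wild type and the knockout).

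Counts over all features moved more. IIAEK in the wild type called 0, but 257 within slide 1 and 17 without wild-type vehicle replicate 3. Counts within a slide are given only where both groups compared held 2 arrays there. IIAEK in the knockout called 0 in every fit that used both slides. The difference called 0, but 1 without wild-type vehicle replicate 3. IIAEK on average called 0 in every fit that used both slides. The knockout under vehicle called 2, but 6 in the fit of 2 groups. It called 18 without wild-type vehicle replicate 3 and 4 without wild-type IIAEK replicate 3. The knockout under IIAEK called 2, but 8 within slide 1, and 5 and 4 with gastric and villus covariates. It called 4 without knockout IIAEK replicate 3. The knockout on average called 5, but 8 with slide as a block or without trend, 3 with normexp and 11 with the villus covariate. It called 2 to 10 without single arrays.

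With 3 mice per group, the SE of a pairwise difference had a median of 0.282 over the members tested.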
